A study of Saccharomyces cerevisiae with 116 samples.

Results

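The amino acid permeases described here are 10 genes of budding yeast, Saccharomyces cerevisiae, picked by their systematic names from the count files: GAP1 (YKR039W), BAP2 (YBR068C), BAP3 (YDR046C), TAT1 (YBR069C), TAT2 (YOL020W), AGP1 (YCL025C), GNP1 (YDR508C), DIP5 (YPL265W), PUT4 (YOR348C) and HIP1 (YGR191W). They were 10 of 7126 features in the files, and all 10 passed the filter on low counts in each fit. RNA was sequenced from diploid mutation accumulation lines, which are carried through repeated single-colony transfers so that most new mutations and chromosome changes are kept whatever their effect on growth. The HH lines went through 2063 generations from a homozygous diploid derived from S288C. That ancestor and all HH lines carry ho and ade2, the alleles lys2-801 and leu2-3.112, the deletion his3-delta-D200, and also ura 3-52. The Hh lines went through 2108 generations from a heterozygous diploid with the genotype ho,ura3, a cross of NCYC 3631, a derivative of the Pennsylvania oak strain YPS606, and NCYC3596, a derivative of the strain spelled DBPVG1106 in the label. HH gave 10 aneuploid lines, each labelled with gained or lost chromosomes, and 11 euploid lines, and Hh gave 10 aneuploid and 5 euploid lines. Each line is 1 lineage and was read in 3 colonies. Of the 116 libraries, 3 belong to the Hh ancestor, 3 to a first run of the HH ancestor and 2 to its second run. Where nothing says that colonies or ancestor libraries came from separate cultures, p-values measure the spread between these samples. Every culture was harvested in log phase from liquid YPD, a rich glucose medium, at 30 °C without treatment. The samples were bulk cultures, so a lower level in every cell and a smaller share of expressing cells cannot be told apart.

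Amino acid permeases are plasma membrane proteins with many membrane-spanning helices that carry amino acids into the cell together with protons. Several of their genes are switched on when amino acids outside the cell are bound by the sensor Ssy1, which with Ptr3 and Ssy5 forms the SPS complex and releases the transcription factors Stp1 and Stp2. Others are held low while a good nitrogen source is present and are raised by the GATA factors Gln3 and Gat1 when it runs out, a control called nitrogen catabolite repression. GAP1, the general amino acid permease, and PUT4, the proline permease, are standard examples of the latter. BAP2 and BAP3 carry the branched-chain amino acids, TAT1 carries tyrosine and branched-chain amino acids, and TAT2 is the tryptophan permease. AGP1 takes up a broad range of amino acids, GNP1 glutamine, DIP5 glutamate and aspartate, and HIP1 histidine.

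On build R64, GAP1 lies at chrXI:515063-516871 on the plus strand, TAT2 at chrXV:286172-287950 on the plus strand, DIP5 at chrXVI:41043-42869 on the plus strand and HIP1 at chrVII:880420-882231 on the plus strand. On the minus strand lie BAP2 at chrII:373861-375690, TAT1 at chrII:376574-378433, BAP3 at chrIV:548762-550576, GNP1 at chrIV:1466453-1468444, AGP1 at chrIII:76018-77919 and PUT4 at chrXV:986899-988782. These spans are the coding exons, and BAP2 and TAT1 are neighbours in tandem, 883 bases apart. No other gene of the annotation overlaps any of the 10. BAP2 and BAP3 are identical at 68.1% of aligned coding bases and AGP1 and GNP1 at 67.2%, while GNP1 and PUT4 are least alike at 49.7%. No word of 75 bases, the read length, from any of the 10 coding sequences occurs elsewhere in the reference, so a perfect reference read can be told apart between these genes.

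The 600 bases before each coding start were searched on both strands for CGGC, the core of the element bound by Stp1 and Stp2, for GATAAG, a site of GATA factors, and for TGACTC, the core of the Gcn4 site. CGGC occurred 9 times before AGP1, 8 times before BAP2 and before TAT1, 7 times before BAP3 and before GNP1, 5 times before DIP5, 4 times before GAP1 and before PUT4, 3 times before TAT2 and 1 time before HIP1. Of 5999 genes, 75.33% had at least 1 CGGC in such a window, 25.02% had at least 3, and the mean was 1.698. GATAAG occurred 5 times before GAP1, 2 times before AGP1 and not in the other windows, while 26.82% of genes had at least 1 and 0.7% at least 3. TGACTC occurred 2 times before HIP1 and 1 time before BAP2 and before AGP1, against 15.3% of genes with at least 1. The distal 300 bases of these windows are printed for BAP2, BAP3 and GNP1, whose levels moved together in the Hh lines, and for GAP1, whose window holds the most GATAAG matches of the 10. Each is written 5′ to 3′ toward its coding start, with CGGC and its reverse complement GCCG and GATAAG and its reverse complement CTTATC in capitals. BAP2 is chrII:375991-376290 on the minus strand, BAP3 chrIV:550877-551176 on the minus strand, GNP1 chrIV:1468745-1469044 on the minus strand and GAP1 chrXI:514463-514762 on the plus strand.
BAP2: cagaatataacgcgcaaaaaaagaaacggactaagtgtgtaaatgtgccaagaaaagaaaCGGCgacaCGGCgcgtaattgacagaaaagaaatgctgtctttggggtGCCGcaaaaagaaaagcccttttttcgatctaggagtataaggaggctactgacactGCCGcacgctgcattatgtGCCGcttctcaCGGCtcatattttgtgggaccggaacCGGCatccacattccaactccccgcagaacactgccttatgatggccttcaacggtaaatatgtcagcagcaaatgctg
BAP3: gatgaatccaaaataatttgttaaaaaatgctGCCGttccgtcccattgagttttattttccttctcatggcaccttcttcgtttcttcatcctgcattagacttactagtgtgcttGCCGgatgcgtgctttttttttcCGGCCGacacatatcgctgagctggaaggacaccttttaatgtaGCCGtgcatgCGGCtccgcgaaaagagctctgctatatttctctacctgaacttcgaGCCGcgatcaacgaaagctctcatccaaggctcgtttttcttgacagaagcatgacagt
GNP1: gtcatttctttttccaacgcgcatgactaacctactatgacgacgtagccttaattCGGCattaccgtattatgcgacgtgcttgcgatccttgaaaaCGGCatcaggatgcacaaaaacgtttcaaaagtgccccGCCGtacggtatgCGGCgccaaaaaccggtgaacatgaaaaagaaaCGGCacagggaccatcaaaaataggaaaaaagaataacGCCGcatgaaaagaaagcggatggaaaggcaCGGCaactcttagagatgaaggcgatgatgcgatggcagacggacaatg
GAP1: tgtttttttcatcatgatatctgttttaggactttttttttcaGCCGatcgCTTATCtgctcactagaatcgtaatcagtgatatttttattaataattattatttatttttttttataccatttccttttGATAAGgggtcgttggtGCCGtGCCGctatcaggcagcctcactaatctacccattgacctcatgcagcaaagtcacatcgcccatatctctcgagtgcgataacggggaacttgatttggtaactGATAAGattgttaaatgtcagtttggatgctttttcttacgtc
All 4 come from the R64 reference, which is the S288C strain, and alleles of the Hh parents may differ from it. The matches describe these letters and are not measured binding sites. In the stretches shown, BAP2, BAP3 and GNP1 each carried 7 CGGC matches and no GATAAG, and GAP1 carried 3 of each. The same stretch, not printed, held 8 CGGC and no GATAAG before TAT1, and 7 CGGC and 1 GATAAG before AGP1.

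Libraries held 4129372 to 12148296 reads in genes, and the counts below were scaled to CPM, the count of a gene per 1e6 reads in genes after correction for library composition. Reads that did not align uniquely had a median share of 19.5% in the HH euploid and 21.3% in the HH aneuploid libraries, of 9.33% in the Hh euploid and 9.76% in the Hh aneuploid libraries, and of 37.1% in HH ancestor run 2. Most aneuploid libraries carried the labelled chromosomes, but some did not. The library labelled HH123 replicate 1 had a median log2 level of -0.07 on chromosome V, and the library labelled Hh59 replicate 1 a median of 0.02 on chromosome VII, both labelled trisomic. The library labelled Hh11 replicate 1 was at 0.38 on chromosome I and 0.54 on chromosome XII, as the Hh18 libraries were at 0.38 to 0.45 and 0.50 to 0.52. The line labelled HH152 was at -0.03 to 0.00 on its labelled chromosome VII and at 0.49 to 0.60 on chromosome VIII. Results were computed with replicate 1 of HH123, Hh59 and Hh11 and all of HH152, called the doubted libraries, and again without them. Hh18, labelled with trisomy of chromosome I alone, stayed in throughout. HIS3, which is deleted in the HH genotype, had more than 3 reads in 4 of 68 HH libraries, at 4 to 26 reads, in the lines HH29, HH112 and HH123.

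The first comparison asked how the ancestors differed before mutations accumulated. The Hh ancestor carried far more RNA of PUT4, DIP5, GAP1 and AGP1 than the HH ancestor, less of HIP1 than either HH run, and less of BAP2 and BAP3 than HH run 2. PUT4, the proline permease, stood at 1156, 2428 and 2043 CPM in the 3 Hh ancestor libraries, at 6.84 and 6.82 CPM in HH ancestor run 2 and at 12.2, 19.8 and 11.1 CPM in run 1. Every Hh library was thus above every HH library, by a ratio of means of 275 against run 2 and 130 against run 1. DIP5, the glutamate and aspartate permease, stood at 2280, 1951 and 2123 CPM in the Hh ancestor, at 303 and 183 CPM in HH run 2 and at 138, 354 and 245 CPM in run 1. Both HH runs overlapped each other for DIP5 and lay below the Hh ancestor. GAP1 was at 449, 573 and 430 CPM in the Hh ancestor, at 145 and 52.4 CPM in HH run 2 and at 29.1, 37.2 and 34.9 CPM in run 1. AGP1 was at 914, 1195 and 1175 CPM in the Hh ancestor, at 238 and 281 CPM in HH run 2 and at 204, 411 and 255 CPM in run 1. For both genes the Hh libraries lay above all HH libraries.

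Among all genes, 50.0% passed an adjusted p of 0.05 in edgeR's quasi-likelihood test of the Hh ancestor against HH run 2, 24.8% as higher and 25.2% as lower. Of the 10 permeases 7 did, 4 as higher and 3 as lower, a count read against that large background. PUT4 was higher by 8.11 ± 0.48 on the log2 scale (SE; adjusted p = 2.87e-07), DIP5 by 3.14 ± 0.40 (adjusted p = 7.29e-05), GAP1 by 2.31 ± 0.36 (adjusted p = 0.000321) and AGP1 by 2.09 ± 0.31 (adjusted p = 0.000201). HIP1, the histidine permease, fell by 1.299 ± 0.17 (adjusted p = 7.64e-05), with 64.1, 76.7 and 79.2 CPM in the Hh ancestor against 185 and 179 CPM in HH run 2 and 125, 125 and 101 CPM in run 1. BAP2 fell by 1.22 ± 0.26 (adjusted p = 0.00214), with 278, 418 and 384 CPM against 810 and 883 CPM, and BAP3 fell by 0.87 ± 0.34 (adjusted p = 0.0487), with 253, 426 and 301 CPM against 446 and 756 CPM. HH run 1 overlapped the Hh ancestor for both genes, at 346, 559 and 557 CPM of BAP2 and 336, 703 and 606 CPM of BAP3. The Hh ancestor's mean was 0.426 times that of run 2 and 0.738 times that of run 1 for BAP2, and 0.543 and 0.596 times for BAP3. For BAP3 the adjusted p missed 0.05 in 4 of the 8 fits that left out 1 library, with differences of -1.20 to -0.44, the smallest without HH ancestor run 2 replicate 2. TAT1, GNP1 and TAT2 did not pass, at 0.49 ± 0.23, 0.41 ± 0.32 and 0.28 ± 0.18. The ancestors differ in strain, genotype and heterozygosity together, and no label gives the run of the Hh ancestor. These factors and the run cannot be told apart.

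The 2 runs of the HH ancestor, which carry the same label for genotype, also differed for most of these genes. Of all genes, 51.4% passed, 27% as higher in run 2 and 24.3% as lower. Of the 10 permeases 7 passed, 6 as higher and 1 as lower. GAP1 was higher in run 2 by 1.55 ± 0.34 (adjusted p = 0.00274), TAT1 by 1.13 ± 0.22 (adjusted p = 0.00147), GNP1 by 0.95 ± 0.32 (adjusted p = 0.0272), TAT2 by 0.90 ± 0.18 (adjusted p = 0.00169), BAP2 by 0.80 ± 0.26 (adjusted p = 0.0220) and HIP1 by 0.64 ± 0.17 (adjusted p = 0.00847), all on the log2 scale by edgeR's quasi-likelihood test, and PUT4 fell by 1.07 ± 0.37 (adjusted p = 0.0309). TAT1 stood at 162 and 171 CPM in run 2 against 71.1, 92.8 and 64.8 CPM in run 1, and TAT2 at 106 and 105 CPM against 52.3, 62.4 and 54.8 CPM, with no overlap for either gene. GAP1 in run 2 rested on unequal libraries, at 145 and 52.4 CPM. Without HH ancestor run 2 replicate 1 the number of permeases that passed was 3, and GAP1 differed by 0.64. The share of all genes that passed in that fit was not counted. Both ancestor comparisons share the libraries of run 2, so they are not independent, and for TAT1, TAT2, GNP1 and GAP1 the Hh ancestor's mean was 1.39, 1.21, 1.32 and 4.91 times that of run 2 and 3.03, 2.25, 2.54 and 14.4 times that of run 1.

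Set against coding length, the order of the 10 genes differed between the ancestors. In the Hh ancestor the mean levels were 1159 CPM per kb for DIP5, 996 for PUT4, 575 for AGP1, 268 for GAP1, 197 for BAP2, 180 for BAP3, 124 for TAT1, 80.1 for GNP1, 71.5 for TAT2 and 40.5 for HIP1. The 3 libraries overlapped between the neighbours DIP5 and PUT4, PUT4 and AGP1, BAP2 and BAP3, BAP3 and TAT1, TAT1 and GNP1, and GNP1 and TAT2. In HH ancestor run 1 the mean levels were 302 CPM per kb for BAP3, 266 for BAP2, 152 for AGP1, 134 for DIP5, 64.6 for HIP1, 41.0 for TAT1, 31.8 for TAT2, 31.5 for GNP1, 18.6 for GAP1 and 7.65 for PUT4. Here the libraries overlapped between BAP3 and BAP2, BAP2 and AGP1, AGP1 and DIP5, TAT1 and TAT2, and TAT2 and GNP1. In run 2 BAP2 came first with 462 CPM per kb and PUT4 again last with 3.63. DIP5 and PUT4 thus had the highest mean levels per length in the Hh ancestor, while PUT4 had the lowest mean of the 10 in both HH runs.

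**Figure D1:**
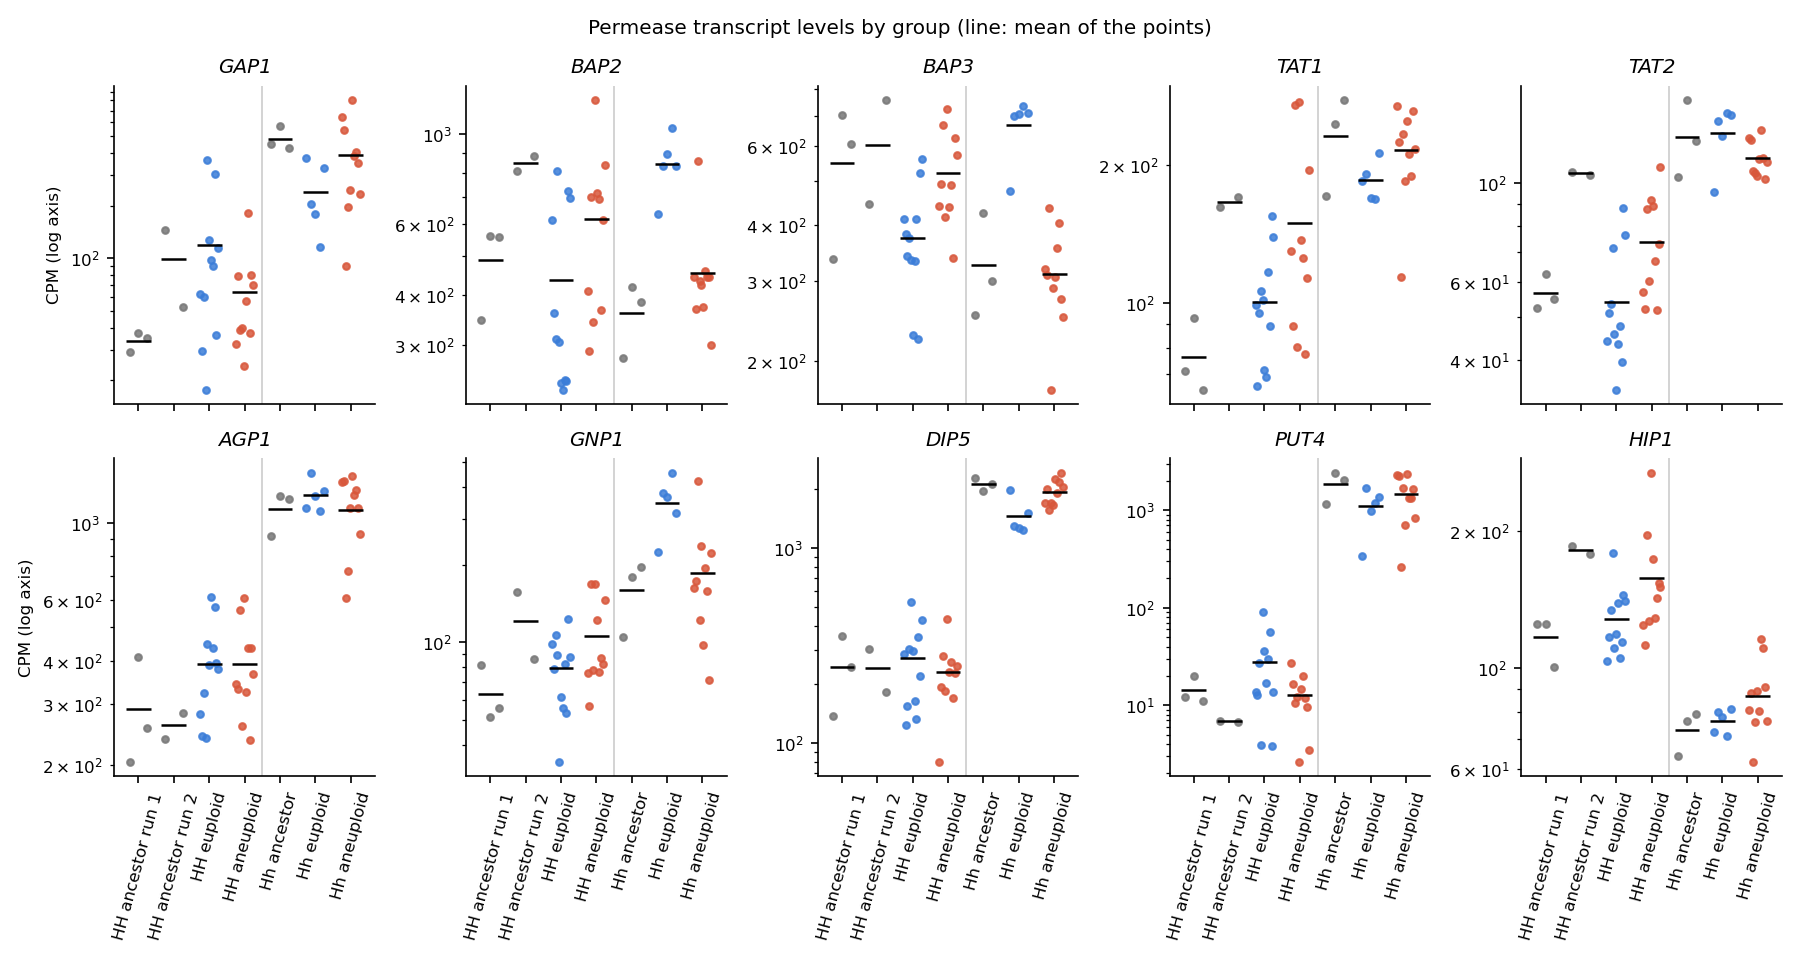
Each panel plots the level of 1 permease gene in CPM on a log axis by group, with 1 point per library for the ancestors (grey) and 1 point per line (mean of 3 colonies) for euploid (blue) and aneuploid (red) lines, and a black line at the mean of the points. PUT4 and DIP5 are far higher in all Hh groups than in all HH groups, and in Hh the euploid lines lie above the aneuploid lines for BAP3 and, with 1 exception, for BAP2.

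DIP5 and PUT4 were higher in the Hh lines than in the HH lines, as the plot of levels by group shows, at smaller ratios than between the ancestors. The mean of the Hh euploid lines was 39.9 times that of the HH euploid lines for PUT4 and 5.35 times for DIP5, and for DIP5 the ancestors' ratio was 8.73 against run 2 and 8.62 against run 1. The HH euploid mean of PUT4 holds HH5 at 91.6 CPM and HH28 at 57.1 CPM, over a median of 16.9 CPM. Over all lines the ratio of medians was 98.9 for PUT4 and 7.31 for DIP5. Over the 21 HH lines PUT4 had a lowest, median and highest line level of 2.63, 13.6 and 91.6 CPM, and over the 15 Hh lines of 264, 1346 and 2352 CPM. For DIP5 these were 80.2, 232 and 529 CPM in HH and 1233, 1698 and 2423 CPM in Hh. DIP5 and PUT4 were the 2 members whose HH and Hh lines did not overlap. The share of all genes without such overlap was not computed, so this count has no background. AGP1 came close, at 235, 377 and 612 CPM in HH against 607, 1195 and 1396 CPM in Hh. GAP1 ranged from 17.7 to 367 CPM in HH and from 90.0 to 800.1 CPM in Hh. HIP1 was the only member besides BAP3 with the lower median in Hh, at 80.8 CPM against 134 CPM, and BAP3 was at 356 CPM against 416 CPM. The lines descend from these ancestors, so this is no independent test of the difference between the ancestors. In the 4 HH libraries with HIS3 reads PUT4 was at 10.0 to 19.3 CPM, and the part of reads from Hh cultures in these values was not tested.

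Whether chromosome gain or loss went with a change in permease RNA was asked by comparing aneuploid with euploid lines of the same ancestor. In Hh, the branched-chain amino acid permeases BAP3 and BAP2 were lower in aneuploid lines. BAP3 stood at 476, 699, 707, 736 and 708 CPM in the euploid lines Hh1, Hh2, Hh3, Hh5 and Hh9, and at a lowest of 173, a median of 308 and a highest of 437 CPM in the 10 aneuploid lines. All 10 aneuploid lines were below all 5 euploid lines. BAP2 stood at 632, 831, 893, 1034 and 835 CPM in the same euploid lines and at a lowest of 299, a median of 437 and a highest of 859 CPM in the aneuploid lines. Of the aneuploid lines, 9 were below all euploid lines, and Hh8 was not. Of all genes 9.87% passed in this comparison, 4.22% as higher and 5.66% as lower, and 2 of the 10 permeases passed, both as lower. BAP3 fell by 1.10 ± 0.18 on the log2 scale (SE; edgeR's quasi-likelihood test on line sums, adjusted p = 0.00558, 10 against 5 lines) and BAP2 fell by 0.91 ± 0.19 (adjusted p = 0.0168). Neither gene lies on a chromosome labelled altered in these lines.

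GNP1, the glutamine permease, went the same way without passing, at -0.89 ± 0.30 (adjusted p = 0.0639). Its line levels were 224 to 453 CPM in euploid lines and 71.6 to 419 CPM in aneuploid lines, and 8 of the 10 aneuploid lines lay below all euploid lines. DIP5 went the other way, at 0.41 ± 0.16 (adjusted p = 0.0928), with 1233 to 1977 CPM in euploid and 1557 to 2423 CPM in aneuploid lines. With DESeq2 the number of permeases that passed was 4, because GNP1 (adjusted p = 0.0277) and DIP5 (adjusted p = 0.0331) joined BAP3 and BAP2. The share of all genes that passed by DESeq2 was not counted. GAP1 was at 0.75 ± 0.41, PUT4 at 0.45 ± 0.43, TAT1 at 0.26 ± 0.16, HIP1 at 0.20 ± 0.14, TAT2 at -0.17 ± 0.11 and AGP1 at -0.13 ± 0.19, and none of these passed. The median difference of the 10 members was 0.04, as was the median of all genes. The BAP2 call was lost without Hh2, Hh3 or Hh5 and without the libraries of replicate number 2, at differences of -0.91, -0.89, -0.84 and -0.87. The BAP3 call held in all 18 such fits, at -1.22 to -1.02.

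The 3 Hh ancestor libraries had 253 to 426 CPM of BAP3 and 278 to 418 CPM of BAP2, overlapping the aneuploid lines and below the mean of every euploid line. The mean of the euploid lines was 2.04 times that of the ancestor for BAP3, 2.35 times for BAP2 and 2.18 times for GNP1, and the mean of the aneuploid lines 0.955 times, 1.26 times and 1.16 times. These ratios were not tested as a class. Tested line by line against the ancestor, no euploid line passed for BAP3 or GNP1, and for BAP2 only Hh5 did (edgeR adjusted p = 0.0486). Colonies of 1 line differed widely. In the euploid line Hh1, BAP2 was at 296, 219 and 1382 CPM and BAP3 at 216, 201 and 1012 CPM in replicates 1 to 3. In the euploid line Hh9, replicate 1 had 321 CPM of BAP2 against 1135 and 1050 in the other colonies. In the aneuploid line Hh8, BAP2 was at 1107, 153 and 1317 CPM, BAP3 at 453, 160 and 700 CPM and GNP1 at 549, 80.5 and 629 CPM. In Hh1, Hh8 and Hh9 the same colonies were thus high in BAP2 and in BAP3. DIP5 ran against them in Hh8, at 999.8, 2804 and 866 CPM, in Hh1, at 2206, 2713 and 1013 CPM, and in Hh9, at 2363, 1084 and 1084 CPM. All 3 Hh8 libraries carried the labelled chromosome XVI, at median log2 levels of 0.95, 0.86 and 0.90.

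**Figure D2:**
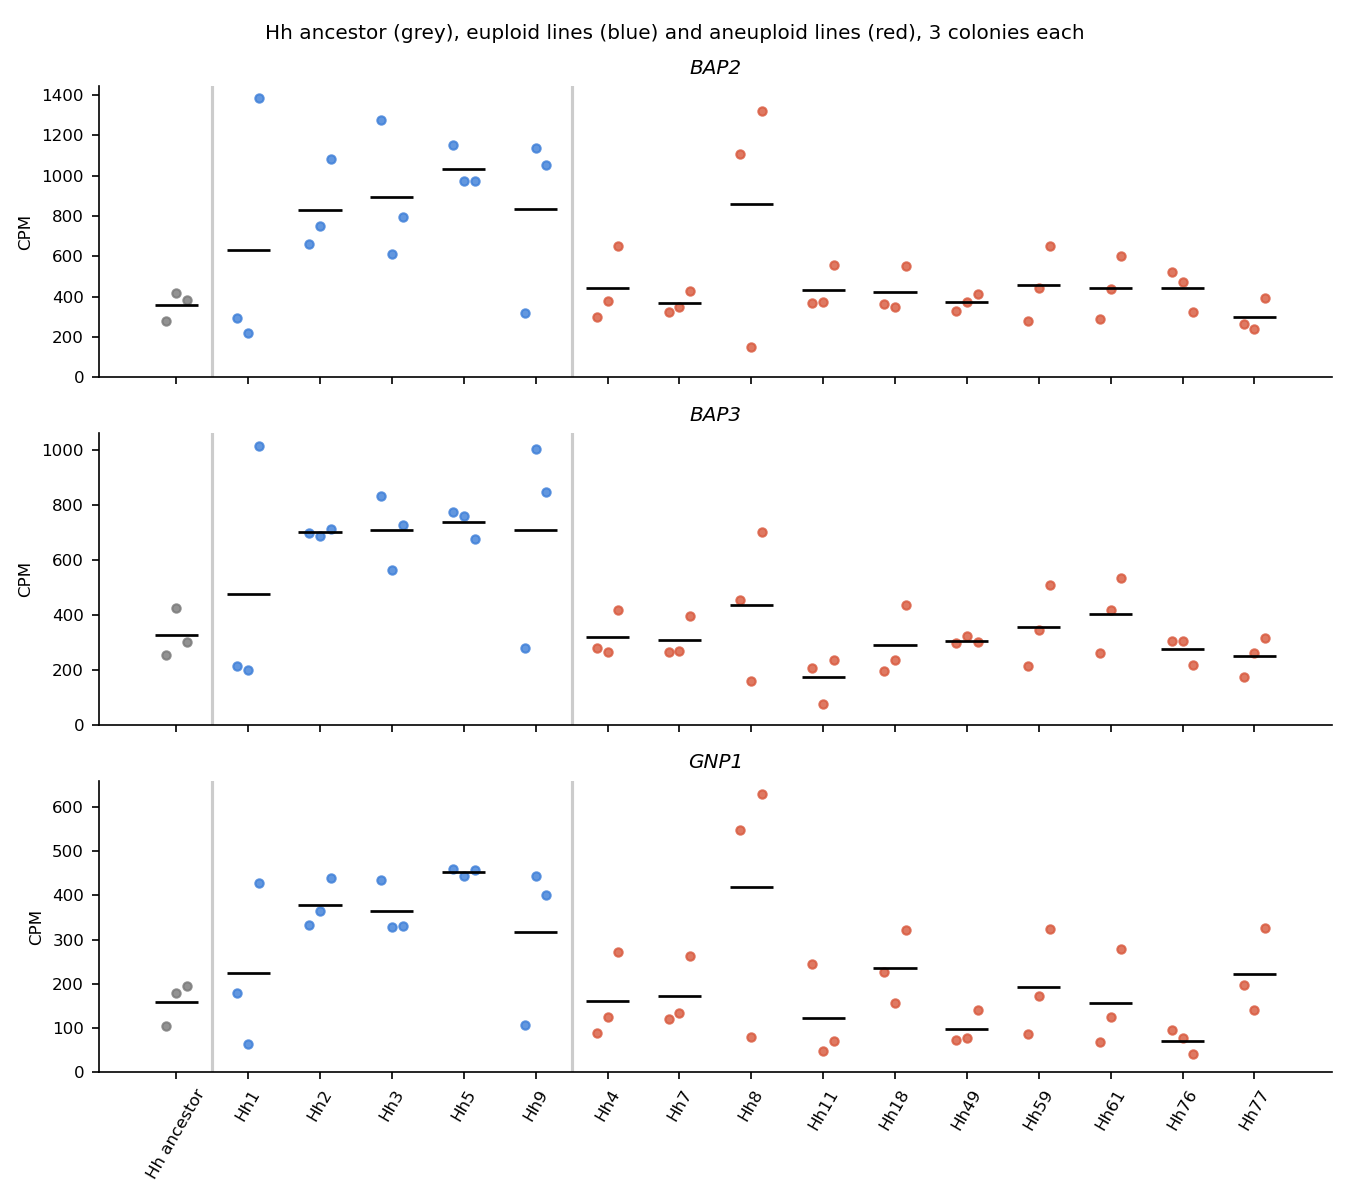
The 3 panels plot BAP2, BAP3 and GNP1 levels in CPM (linear axis from 0) for the Hh ancestor (grey), the 5 euploid lines (blue) and the 10 aneuploid lines (red), with 1 point per colony and a black line at the mean of 3. Line means of BAP3 are at 476 CPM or above in euploid lines and at 437 CPM or below in aneuploid lines, and single colonies of Hh1, Hh8 and Hh9 depart from the others of their line.

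In HH, no permease passed between aneuploid and euploid lines, where 0.00% of 6268 genes passed edgeR's quasi-likelihood test. DESeq2 also called none of the 10. Before adjustment 1 of the 10, BAP3, was under 0.05, without a count over all genes at that threshold. GAP1 was at 119 ± 113 CPM (SD, n = 11) in euploid and 64.1 ± 45.9 CPM (SD, n = 10) in aneuploid lines, a difference of -1.06 ± 0.54 on the log2 scale (adjusted p = 0.507). PUT4 was at 27.9 ± 26.3 CPM and 12.9 ± 7.35 CPM, at -0.69 ± 0.53 (adjusted p = 0.631). In euploid lines the SD was thus nearly as large as the mean for both genes. BAP3 was at 375 ± 104 CPM in euploid and 521 ± 122 CPM in aneuploid lines, at 0.34 ± 0.15 (adjusted p = 0.502), and TAT1 at 101 ± 28.3 and 149 ± 73.5 CPM, at 0.42 ± 0.22 (adjusted p = 0.507). BAP2 was at 0.32 ± 0.27, GNP1 at 0.29 ± 0.22, TAT2 at 0.27 ± 0.13, HIP1 at 0.26 ± 0.14, DIP5 at -0.31 ± 0.27 and AGP1 at -0.10 ± 0.22. The median of the 10 was 0.27, against 0.01 for all genes. The names of the HH libraries carry SC for 9 euploid and 5 aneuploid lines and X for 2 euploid and 5 aneuploid lines, and the fit had a term for this. Within the X lines alone GAP1 was at 0.24, PUT4 at 0.42, AGP1 at 0.12 and BAP2 at -0.03, and within the SC lines alone GAP1 was at -1.55, none of them passing.

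The class effects themselves differed between Hh and HH for BAP3 and BAP2. In 1 fit of all lines, 5.09% of genes passed the interaction test, 2.62% as higher and 2.46% as lower, and 2 of the 10 permeases did, both as lower. The class effect of BAP3 was lower in Hh than in HH by -1.42 ± 0.24 on the log2 scale (adjusted p = 0.00209) and that of BAP2 by -1.21 ± 0.36 (adjusted p = 0.0436). GNP1 did not pass, at -1.16 ± 0.38 (adjusted p = 0.0614), nor did GAP1, at 1.84 ± 0.75 (adjusted p = 0.129), nor TAT1, at -0.13 ± 0.30 (adjusted p = 0.834). The BAP3 result passed without any 1 of the 36 lines. The BAP2 result passed in 17 of these 36 fits, and without the doubted libraries it missed the threshold at -1.16 (adjusted p = 0.0721). Without HH108 alone it was at -0.82 (adjusted p = 0.106).

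Other genes of amino acid uptake were read from 7 lists, against 9.87% of all genes that passed in Hh, 4.22% as higher and 5.66% as lower. Of 11 other amino acid permeases, 3 passed in Hh, all lower in aneuploid lines: MUP3, a low-affinity methionine permease, at -1.84 ± 0.19 (edgeR adjusted p = 0.000110), MUP1, the high-affinity methionine permease, at -1.70 ± 0.28 (adjusted p = 0.00608), and MMP1, which carries S-methylmethionine, at -0.58 ± 0.18 (adjusted p = 0.0452). The median of the 11 was -0.43, against 0.04 for all genes. Of 17 genes of permease traffic and ubiquitin adaptors, 4 passed, all lower, with NPR1, a kinase that keeps GAP1 at the membrane, at -0.39, BUL1 and BUL2, adaptors of the ubiquitin ligase Rsp5, at -0.39 and -0.42, and ROD1, an arrestin-like adaptor, at -0.47. OPT1, which carries oligopeptides, was the only 1 of 9 transporters of peptides, ammonium and allantoate to pass, at -1.15 ± 0.23 (adjusted p = 0.0168). Of 21 genes of amino acid and nitrogen catabolism, ARO9 and ARO10, which act in the breakdown of aromatic amino acids, passed as higher, at 1.65 ± 0.36 and 1.27 ± 0.33. None of the 10 genes of the SPS sensor pathway passed by edgeR or DESeq2, with 3 under 0.05 before adjustment, and none of the 5 regulators of nitrogen catabolite repression passed by either tool, with 1 under 0.05 before adjustment. Of 28 genes of amino acid biosynthesis under Gcn4 none passed by edgeR, with 3 under 0.05 before adjustment and 3 passing by DESeq2. In HH none of the 101 genes of the lists passed by edgeR or DESeq2, with 13 under 0.05 before adjustment. No share of all genes was counted before adjustment or by DESeq2, so those counts have no background.

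In the ancestors the same lists held genes that passed in either direction. Between the Hh ancestor and HH run 2, where 24.8% of all genes passed as higher and 25.2% as lower, 3 of the 11 other permeases were higher and 5 lower, with BIO5, a transporter of a biotin precursor, at -2.75 and MUP3 at -2.34. In the SPS list 4 of 10 passed as higher, SSY5 at 0.64, ASI3 at 0.59, PTR3 at 0.75 and STP1 at 0.59. SSY5 and STP1 were also lower in HH run 2 than in HH run 1, at -0.67 (edgeR adjusted p = 0.00353) and -0.53 (adjusted p = 0.0225). ARO9 was higher by 3.84 and ARO10 by 2.86, PTR2, the di- and tripeptide transporter, by 2.47, and LEU1, an enzyme of leucine synthesis, was at -3.22. Between the 2 runs of the HH ancestor, where 27% of all genes passed as higher and 24.3% as lower, 17 of 28 genes of amino acid biosynthesis were higher in run 2 and 2 lower, with a median of 1.09 against 0.02 for all genes, and HIS7, an enzyme of histidine synthesis, was at 2.45.

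Differences among lines were next tested over single colonies. In HH SC lines, where 35.1% of genes differed among the 14 lines, 6 of 10 permeases passed: PUT4 (edgeR adjusted p = 8.52e-08), GAP1 (adjusted p = 1.24e-06), BAP2 (adjusted p = 1.81e-06), HIP1 (adjusted p = 0.00312), DIP5 (adjusted p = 0.0104) and TAT1 (adjusted p = 0.0206). In HH X lines, where 27.3% of genes differed among the 7 lines, PUT4 (adjusted p = 0.00693) and GAP1 (adjusted p = 0.0460) passed, and without the doubted libraries neither did. In Hh lines, where 58.0% of genes differed among the 15 lines, 7 of 10 passed, with GAP1 (adjusted p = 9.44e-05) and AGP1 (adjusted p = 0.000222) first, then BAP3, HIP1, GNP1, PUT4 and BAP2. TAT1, TAT2 and DIP5 did not pass there. These counts moved when the libraries of 1 replicate number were left out: without numbers 1, 2 and 3 they were 3, 3 and 6 in HH SC, 0, 0 and 3 in HH X and 2, 1 and 4 in Hh. The share of all genes that differed in these smaller fits was not counted. The spread of the line means was widest for GAP1 and PUT4. On the scale of log2(CPM + 0.5) their SD between lines was 1.23 and 1.23 in HH SC lines and 0.88 and 1.10 in Hh lines, and their SD between colonies of a line 0.84 and 0.65 in HH SC lines and 0.66 and 1.05 in Hh lines. TAT2 spread least in Hh, with an SD of 0.19 between lines and 0.30 between colonies. For BAP2 in Hh the SD between colonies, 0.73, was above that between lines, 0.53.

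**Figure D3:**
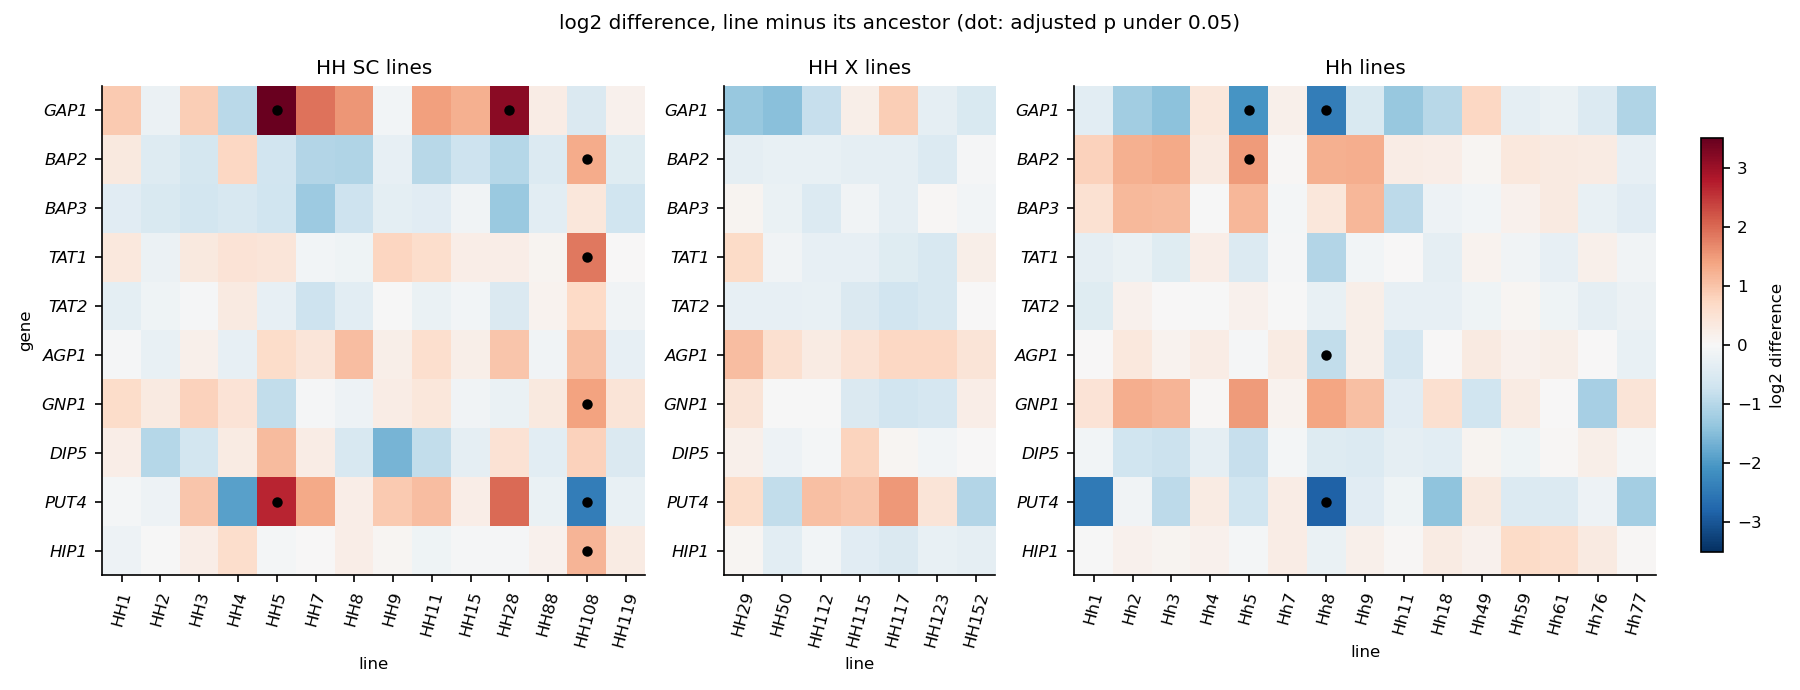
The heatmap shows the log2 difference of each line from the ancestor libraries of its own experiment and name (colour, from blue for lower to red for higher) for 10 permease genes in 14 HH SC, 7 HH X and 15 Hh lines, with a dot where the adjusted p was under 0.05. GAP1 carries dots as higher in HH5 and HH28 and as lower in Hh8 and Hh5, and HH108 carries 5 of the 13 dots.

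Against their own ancestor, few lines moved a permease, as the heatmap of line differences shows. Of 140 pairs of permease and line in HH SC 8 passed, 7 as higher and 1 as lower, against 2.99% of all pairs of gene and line, 1.53% as higher and 1.46% as lower. Of 70 pairs in HH X none passed, against 0.815% of all pairs. Before adjustment 1 was under 0.05, without a count over all pairs at that threshold. The only tool run on these pairs was edgeR's quasi-likelihood test. Of 150 pairs in Hh 5 passed, 1 as higher and 4 as lower, against 2.36% of all pairs, 1.37% as higher and 0.993% as lower. GAP1 was higher in the euploid line HH5, at 737, 68.8 and 296 CPM in its colonies against 29.1 to 37.2 CPM in the ancestor, by 3.45 ± 0.75 (edgeR adjusted p = 0.00977). PUT4 was higher in the same line, at 184, 15.7 and 75.0 CPM against 11.1 to 19.8 CPM, by 2.67 ± 0.60 (adjusted p = 0.0127). In HH5 the order of the colonies was the same for both genes, and 0.725% of genes passed in this line, 0.677% as higher and 0.0484% as lower. GAP1 was also higher in the euploid line HH28, at 255, 328 and 326 CPM, by 3.17 ± 0.74 (adjusted p = 0.0245), where 0.548% of genes passed, 0.484% as higher and 0.0645% as lower. Its colonies all lay above every ancestor library.

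HH108, with trisomy of chromosome VIII and monosomy of chromosome IX, had 5 of the calls, but 34.1% of all genes passed in this line, 15.9% as higher and 18.3% as lower. Its libraries also had 30.4%, 36.3% and 37.8% of reads not aligned uniquely, against 16.8% to 21.0% in HH ancestor run 1. Whether this bears on the calls of HH108 was not tested. BAP2 was at 1172, 1223 and 1241 CPM, higher by 1.31 ± 0.40 (edgeR adjusted p = 0.00894), TAT1 higher by 1.84 ± 0.50 (adjusted p = 0.00376), GNP1 by 1.42 ± 0.53 (adjusted p = 0.0329) and HIP1 by 1.19 ± 0.29 (adjusted p = 0.00149). PUT4 was at 2.11, 3.08 and 2.71 CPM and fell by 2.43 ± 0.65 (adjusted p = 0.00361). None of these genes lies on chromosome VIII or IX. In Hh5, a euploid line in which 19.3% of genes passed, 9.74% as higher and 9.54% as lower, BAP2 was higher by 1.501 ± 0.54 (adjusted p = 0.0486) and GAP1 fell by 2.08 ± 0.50 (adjusted p = 0.00717). In Hh8, where 13.3% of genes passed, 8.30% as higher and 4.97% as lower, PUT4 fell by 2.83 ± 0.81 (adjusted p = 0.0169), GAP1 fell by 2.43 ± 0.51 (adjusted p = 0.00101) and AGP1 fell by 0.86 ± 0.20 (adjusted p = 0.00289). GAP1 stood at 45.8, 168 and 56.3 CPM in Hh8 against 430 to 573 CPM in the ancestor, with no overlap.

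Permease genes on a chromosome labelled altered were set against the euploid lines of the same experiment and name. HIP1, on chromosome VII, was higher in both Hh lines labelled trisomic for it. It stood at 94.2, 126 and 127 CPM in Hh59 and at 91.03, 117 and 125 CPM in Hh61. The 94.2 CPM was in Hh59 replicate 1, which lacked the extra chromosome. The highest colonies of Hh7, Hh11, Hh18 and Hh76, not labelled altered on chromosome VII, overlapped these values at 100.3, 100.5, 101.2 and 101.8 CPM. Those of Hh4, Hh8, Hh49 and Hh77 were at 89.5 CPM or below. The 15 colonies of the euploid lines were at 64.7 to 88.4 CPM, with no overlap with Hh59 or Hh61. The difference was 0.60 ± 0.14 on the log2 scale in Hh59 (edgeR adjusted p = 0.0126), where 5.12% of genes passed, 3.85% as higher and 1.26% as lower, and the median of chromosome VII was 0.39, and 0.54 ± 0.14 in Hh61 (adjusted p = 0.0150), where 9.68% passed, 6.66% as higher and 3.02% as lower, and the median was 0.54. Without the doubted library of Hh59 the difference there was 0.73 ± 0.16 (adjusted p = 0.00546) and the chromosome median 0.51. Both calls were lost when all libraries of any 1 replicate number were left out, at 0.52 to 0.74 in Hh59 and 0.44 to 0.68 in Hh61. In HH152, labelled trisomic for chromosome VII but at a chromosome median of -0.01, HIP1 was at 0.07 ± 0.25, and 25.1% of genes passed in this line, 12.1% as higher and 13.1% as lower.

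DIP5, on chromosome XVI, stood below its chromosome in both lines labelled with extra copies. In HH112 DIP5 was at -0.39 ± 0.53 against a chromosome median of 0.60, and in Hh8, with 4 labelled copies, at 0.11 ± 0.31 against 0.95. Neither passed against the euploid lines (edgeR adjusted p = 0.712 and 0.916), where 4.71% of genes passed in HH112, 3.82% as higher and 0.887% as lower, and 9.30% in Hh8, 6.71% as higher and 2.59% as lower. The Hh8 value came from unequal colonies, as above, and the distance of DIP5 from the chromosome median was not tested. In the line labelled Hh11, with 3 labelled copies of chromosome XV and a chromosome median of 0.42, TAT2 was at -0.30 ± 0.19 and PUT4 at 0.78 ± 0.55 (adjusted p = 0.247 and 0.286), where 23.2% of genes passed, 14% as higher and 9.20% as lower. Without replicate 1, which lacked the extra chromosome, they were at -0.23 ± 0.22 and 1.25 ± 0.61 against a chromosome median of 0.53. PUT4 in Hh11 rested on 1 colony, at 417, 557 and 4143 CPM.

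**Figure D4:**
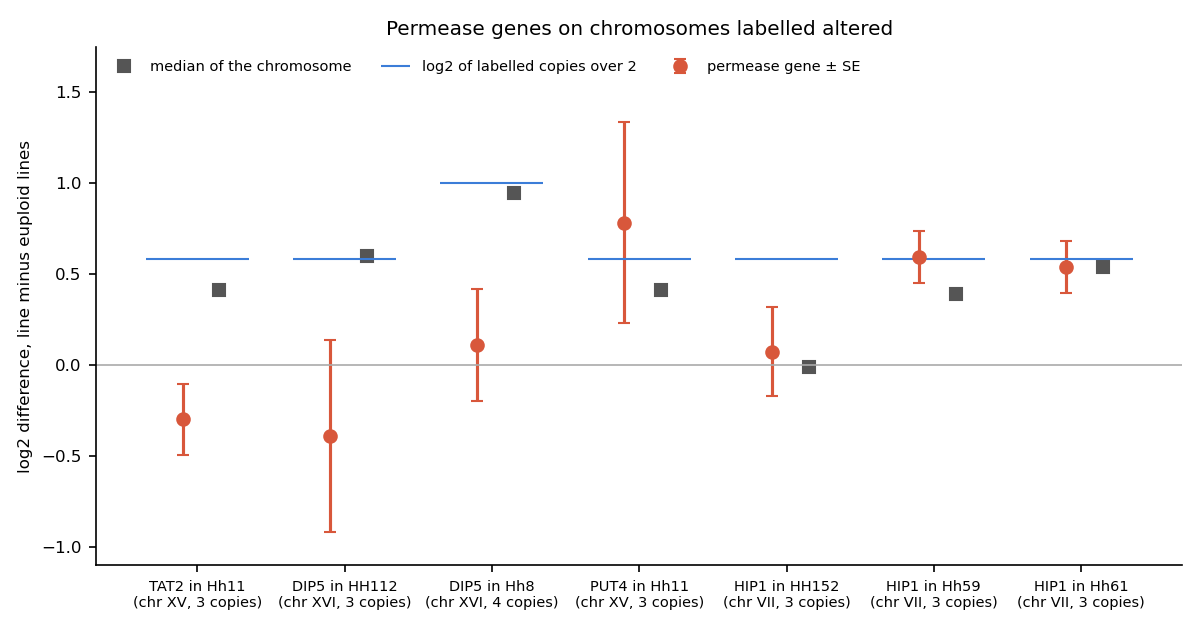
For each permease gene on a chromosome labelled altered, the plot shows its log2 difference from the euploid lines (red, with SE), the median of the chromosome's genes (grey square) and the log2 of labelled copies over 2 (blue line). HIP1 in Hh59 and Hh61 sits near the blue line, while DIP5 in Hh8 is at 0.11 under a chromosome median of 0.95.

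Across lines, 45 pairs of the 10 genes were tested in each experiment for levels that rose or fell together. Lines were permuted within name (100000 resamples, two-sided, Benjamini-Hochberg over the 45 pairs). The share that passes among pairs of other genes was not computed, so the counts below have no background. In the 21 HH lines 23 pairs passed by Pearson's r, 14 positive and 9 negative. GAP1 and PUT4 were positively related (r = 0.81, permutation p = 5e-05, adjusted p = 0.00113; rho = 0.77, permutation p = 0.00023, adjusted p = 0.00607), and r was 0.72 without HH5 and HH28, the 2 lines farthest from the median of GAP1. PUT4 ran against TAT2 (r = -0.77, permutation p = 0.00013, adjusted p = 0.0018; rho = -0.67, permutation p = 0.00179, adjusted p = 0.0161), and r was -0.70 without HH7 and HH108. GAP1 ran against GNP1 (r = -0.75, permutation p = 0.00016, adjusted p = 0.0018; rho = -0.69, permutation p = 0.0008, adjusted p = 0.0120), and r was -0.65 without HH5 and HH28. BAP2 was positively related to TAT2 at r = 0.76, but r was 0.44 without HH4 and HH108. In other positive pairs r fell to 0.36 or below without 2 lines, with HH108 among them each time. Without HH4 and HH108, r went from 0.68 to -0.04 for BAP2 with HIP1 and from 0.61 to 0.23 for BAP2 with TAT1. Without HH7 and HH108 it went from 0.60 to 0.22 for BAP3 with TAT1 and from 0.70 to 0.32 for BAP3 with TAT2. Without HH29 and HH108, TAT1 with HIP1 went from 0.61 to -0.10 and TAT1 with GNP1 from 0.66 to 0.36. GNP1 with HIP1 went from 0.61 to 0.28 without HH5 and HH108. Of the negative pairs, PUT4 with HIP1 went from -0.67 to -0.32 without HH4 and HH108, and BAP3 with PUT4 from -0.54 to -0.29 without HH7 and HH108.

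In the 15 Hh lines 15 pairs passed, 10 positive and 5 negative. BAP2 and BAP3 rose and fell together (r = 0.87, permutation p = 6e-05, adjusted p = 0.00135; rho = 0.86, permutation p = 0.00013, adjusted p = 0.00495), and r was 0.82 without Hh3 and Hh5. Each was also positively related to GNP1 (r = 0.76 for BAP2 and 0.75 for BAP3, adjusted permutation p = 0.0113 for both). These relations hold the difference between euploid and aneuploid lines. With each class centred on its own mean, the 3 values of r were 0.60, 0.53 and 0.51 and did not pass (adjusted permutation p = 0.132, 0.157 and 0.161). TAT1 and PUT4 were the most closely related pair apart from BAP2 and BAP3 (r = 0.85, permutation p = 3e-05, adjusted p = 0.00135; rho = 0.81, permutation p = 0.00046, adjusted p = 0.0069). For them r was 0.70 without Hh1 and Hh8 and 0.84 within classes, where they passed again (adjusted permutation p = 0.00517). GNP1 ran against DIP5 (r = -0.82, permutation p = 0.00017, adjusted p = 0.00255; rho = -0.82, permutation p = 0.00022, adjusted p = 0.00495), with r = -0.70 without Hh49 and Hh76. GAP1 and PUT4 passed again (r = 0.61, adjusted permutation p = 0.0488), with r = 0.49 without Hh5 and Hh8. Within classes 2 of the 45 pairs passed in Hh and 16 in HH. BAP2 and TAT1, neighbours on chromosome II, went together in HH (r = 0.61, and 0.23 without HH4 and HH108) and in opposite directions in Hh (r = -0.60), a difference that was not tested between the experiments. All values of a line share its library totals, so levels of abundant genes bear on each other.

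**Figure D5:**
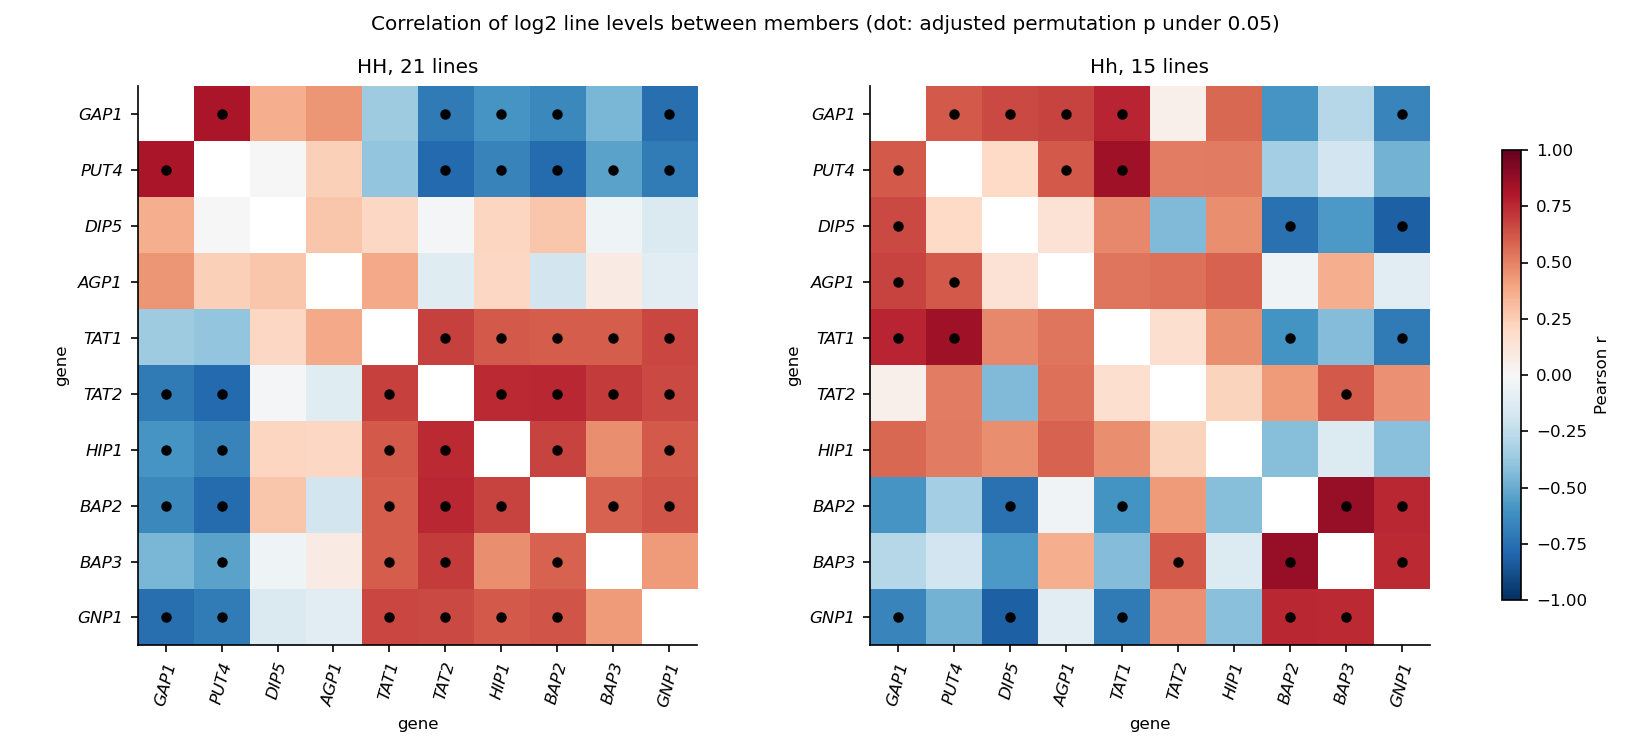
The matrices show Pearson's r of log2(CPM + 0.5) line levels between permease genes (colour, from blue for -1 to red for 1) over 21 HH lines and 15 Hh lines, with a dot where the adjusted permutation p was under 0.05. GAP1 and PUT4 are red with each other and blue with GNP1 in HH, and BAP2, BAP3 and GNP1 form a red block in Hh.

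Genes outside the 10 with the most similar pattern over lines were named by Pearson's r among genes of at least 10 CPM, as a description without a test. All lines entered, HH108 among them, and classes were not centred, so these values hold the class differences. They were not computed without HH108. In HH, over 21 lines and 5425 genes, PUT4 was most like MDH2, a cytosolic malate dehydrogenase, at r = 0.94, and ALD6, an aldehyde dehydrogenase, at 0.90. GAP1 was most like BNS1 and MPC1, the latter a subunit of the mitochondrial pyruvate carrier, both at 0.88. BAP2 was most like CYS4, an enzyme of cysteine synthesis, and BAG7, both at 0.88, and BAP3 most like SNU114 at 0.82 and CIN10 at 0.79. AGP1 was most like the ammonium permease MEP3 at 0.81 and YRM1 at 0.71, the loosest likeness of the 10. In Hh, over 15 lines and 5330 genes, GAP1 was most like PCL2 and QDR3, both at 0.95, and GNP1 most like NTE1 and PDC5, a pyruvate decarboxylase, both at 0.96. BAP3 was most like RGT2, a glucose sensor, at 0.95, and BAP2 most like the kinase gene PRK1 and YDR338C, both at 0.95. DIP5 was most like BNA6 and BNA1, enzymes of NAD synthesis from tryptophan, at 0.94 and 0.92. PUT4 was most like PYK2, a pyruvate kinase that is its neighbour in systematic name on chromosome XV, at 0.91, and NPL4 at 0.89. HIP1 was most like VAS1 and ARO8, both at 0.94 and both on chromosome VII, as HIP1 is.

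The other likenesses were TAT1 with ENB1 and ALT1 at 0.88 and 0.87 in HH and with PCS60 and GUT2 at 0.95 and 0.88 in Hh, and TAT2 with TAE1 and SDD3 at 0.91 and 0.90 in HH and with RPN1 and CCT5 at 0.88 and 0.87 in Hh. DIP5 was most like UBP6 at 0.82 and DBF2 at 0.81 in HH, GNP1 most like ORC5 and PRP19, both at 0.86, and HIP1 most like SEC18 at 0.92 and RRP42 at 0.91. AGP1 in Hh was most like ACH1 at 0.88 and BPL1 at 0.87, and BAP3 after RGT2 was most like TBS1 at 0.93. No gene was the nearest to the same member in both experiments.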

How the data were processed

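RNA of 116 libraries was read as 75-base single-end reads. The counts are whole reads per gene as deposited by the authors, 1 file per library. The submitters' processing notes name Trim Galore 0.4.4, TopHat2 2.1.1, SAMtools 1.3.1, HTSeq 0.6.1pl and build sacCer3, with settings not given in the sources used here. A deposited FPKM table was not used here. The rows of HTSeq for reads in no gene stayed out of library sizes.

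Counts were tested with edgeR 4.0.16 (R 4.3.3; TMM, filterByExpr, quasi-likelihood with robust dispersion), with Benjamini-Hochberg adjustment over all genes tested and a threshold of 0.05. Colonies were summed per line for comparisons of aneuploid with euploid lines, with a term for SC or X names in HH, taken here to mark the run. Single libraries entered the tests among lines, against ancestors and on altered chromosomes. DESeq2 1.42.0 was an alternative. Printed levels are TMM-scaled CPM, and a line level is the mean of 3 colonies. The fits were tested on simulated data. No pair of libraries of a line agreed within sampling noise, with a lowest chi-square per degree of freedom of 7.04. Depth limits low genes such as PUT4 in HH.

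The 10 members and the gene lists were chosen with earlier results of these data known. All members are named, with up to 4 genes per list and comparison by smallest p. The titles gave each library its line, and for HH2 replicates 2 and 3 the descriptions name other lines. The series text counts 12 euploid HH and 6 euploid Hh lines, and the labels used here give 11 and 5.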

Additional observations from a re-analysis of the deposited data

Results flagged for a closer look

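Line levels were checked for a line far from the rest of its group in 30 sets of 1 gene and 1 group, of which chance alone marks about 1 in 20, and 4 stood out. The groups were the HH aneuploid, Hh euploid and Hh aneuploid lines, and the HH euploid lines were not checked. GAP1 in the aneuploid line HH117 was at 181.8 CPM, and the next of the 10 HH aneuploid lines was at 80.5 CPM. BAP2 in the aneuploid line Hh8 was at 859 CPM, against 458 CPM in the next of the 10 Hh aneuploid lines. GNP1 in the same line Hh8 was at 419 CPM, against 235 CPM in the next. BAP3 in the euploid line Hh1 was at 476 CPM, below the next lowest of the 5 Hh euploid lines at 699 CPM. Colonies of Hh8 and Hh1 were unequal for these genes.

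The difference between aneuploid and euploid lines itself differed between Hh and HH for BAP2 and BAP3, by the interaction test of edgeR. It was lower in Hh by -1.21 on the log2 scale for BAP2 (adjusted p = 0.0436) and by -1.42 for BAP3 (adjusted p = 0.00209).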

How the results depend on the processing

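The lower BAP3 in Hh aneuploid lines passed under each alternative run, and the lower BAP2 passed under all but those named in the results. With X lines alone the HH class differences were 0.24 for GAP1, 0.12 for AGP1, 0.42 for PUT4 and -0.035 for BAP2, opposite in sign to the full fit. In Hh, DESeq2 called 4 members where edgeR called 2, without a count over all genes for DESeq2. Without the doubted libraries, 1 member passed the interaction test and 0 differed among HH X lines, again without a count over all genes in these fits. Centred within class, 2 pairs of members passed in Hh, where 15 passed before. The causes were not tested.

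Leaving out 1 line or replicate gave 1 to 5 members called between Hh classes, 1 to 3 in the interaction test and 3 to 7 between the HH ancestor runs. Among lines it gave 3 to 6 members in HH SC, 0 to 3 in HH X and 1 to 4 in Hh, and against ancestors 2 to 6 pairs, 0 to 4 pairs and 1 to 2 pairs. The share of all genes that passed in each of these fits was not counted. In the HH class comparison BAP2 ranged from -0.069 to 0.46 and AGP1 from -0.26 to 0.012. In the interaction TAT1 ranged from -0.22 to 0.18, AGP1 from -0.11 to 0.17 and HIP1 from -0.090 to 0.17. Between the runs BAP3 ranged from -0.29 to 0.47, AGP1 from -0.33 to 0.19 and DIP5 from -0.42 to 0.36, and DIP5 was 0.012 with no filter on low counts. On altered chromosomes HIP1 ranged from 0.52 to 0.74 in Hh59, from 0.44 to 0.68 in Hh61 and from -0.0017 to 0.12 in HH152. DIP5 ranged from -0.74 to 0.015 in HH112 and from -0.59 to 0.48 in Hh8, TAT2 from -0.77 to 0.042 and PUT4 from -1.20 to 1.42 in Hh11.

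Deviations of the ancestor libraries correlated at -0.0035 to 0.21 in 7 pairs of the same replicate number. In 14 pairs of different numbers they correlated at -0.26 to 0.25. The ranges overlap and the pairs share libraries, so they do not settle whether replicate numbers pair the ancestor libraries. For lines, deviations correlated over 0.1 in 88 of 273 same-number pairs in HH SC, 54 of 63 in HH X and 174 of 315 in Hh. Of the libraries, 20 of 42, 18 of 21 and 30 of 45 were closest to their own number. The median r for the same number was 0.013, 0.394 and 0.163, and for different numbers -0.265 in HH X and -0.08 in Hh. No label makes replicate numbers a batch. The main tests on single colonies had no term for them, so their p-values do not account for this shared deviation. With the replicate block DIP5 differed by 0.016 between the runs, and 1 member differed among HH X lines, without a count over all genes in that fit.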
